A study of Mus musculus with 143 samples.

Results

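MC38 is a mouse colon carcinoma line that grows under the skin of mice with an intact immune system. The comparison described here sets 5 MC38 tumours of mice given isotype control mIgG1 against 3 MC38 tumours labelled Baseline, chosen by their titles. Together they are 8 of the 143 libraries of a series of 11 tumour models. The isotype control is a mouse antibody without the PD-1 specificity of muDX400, the therapeutic antibody of the series. It was injected on days 11 and 15 after implantation, and the tumours were excised on day 19, which is 8 days after the first injection. The labels give the baseline tumours no treatment and no day of excision. All mice received their cells as a single inoculum in the right lower flank, so the 8 tumours are treated as those of 8 mice, and the labels give no age, sex or strain. The baseline and the isotype-injected tumours differ in the block of sample numbers they carry (US-1377 for baseline, US-1472 for isotype). They may also differ in time of growth and in injection of an antibody, which the labels do not settle for baseline. Block, time and injection cannot be told apart within MC38. EMT6 and LL2 are the other 2 models in which 5 isotype and 3 baseline libraries carry the same number blocks as in MC38. They serve below to set the MC38 change against the change between the same blocks in other tumours.

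A tumour that enlarges under the skin meets several well-known conditions. Oxygen falls in its core, hypoxia-inducible factors accumulate and switch on glucose transporters, carbonic anhydrases and regulators of their own turnover. Monocytes and neutrophils follow chemokines into the tissue, and fibroblasts lay down collagen, elastic fibres and proteoglycans around the cancer cells. Interferon-gamma, made by T cells and NK cells, switches on guanylate-binding proteins, immunity-related GTPases and the antigen presentation machinery. Expression was measured by total RNA sequencing of the whole tumour, so a lower level may reflect fewer cells of a type or less RNA per cell, and these cannot be told apart.

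Values are FPKM, fragments per kilobase of transcript scaled to the fragments mapped in the library, as the authors deposited them. Each log2 difference below is isotype minus baseline on the log2(FPKM + 1) scale, given with its standard error, and understates the change of genes at low level. Adjusted p-values come from limma with Benjamini-Hochberg adjustment over all genes tested, and a gene "passed" at an adjusted p under 0.05. Estimated depth was 19.7 to 24.8 M fragments in isotype and 19.7 to 20.2 M in baseline libraries. Log values correlated at 0.955 to 0.991 between isotype libraries, 0.978 to 0.995 between baseline libraries and 0.953 to 0.985 across the groups. On the first principal component, which held 47.0% of the variance, isotype replicate 3 lay farthest out, and on the second (22.4%) the groups did not overlap. Mitochondrial transcripts took 2.93% to 3.95% of the FPKM total in isotype libraries and 4.49% to 7.64% in baseline libraries, highest in baseline replicate 3. Of 16 epithelial and colon markers, 11 were too low to test. Cdx2, which encodes an intestinal transcription factor, was listed at 0 in all 5 isotype libraries and at 0 to 0.0215 FPKM in baseline libraries, and Vil1 at 0.0129 to 0.0321 FPKM and 0 to 0.0479 FPKM, so these defining markers of colon epithelium were at or near 0 in tumours of a colon line.

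The first question was which genes differ between 19-day isotype tumours and baseline tumours. Single chemokine, elastic fibre, proteoglycan, hypoxia-induced and early stress genes were among those higher in isotype tumours. The genes lower in isotype tumours included Nlrc5, which drives MHC class I transcription, the cell cycle inhibitor locus Cdkn2a, the zinc finger gene Zfp706 and the complex I subunit gene Ndufc1. Of 12174 genes tested, 235 passed (1.93%), of which 136 were higher (1.12%) and 99 lower (0.813%) in isotype tumours. The 235 genes all had groups that did not overlap. Over all genes tested, isotype libraries lay entirely above baseline in 6.14% and entirely below in 7.70%, and the median difference was -0.03. Counts in the lists below are to be read beside these shares. The number of calls rested on few libraries. Without baseline replicate 1 it was 7 genes (Ccl9, Ccl6, Zfp706, Pi16, Selenbp1, Cdkn2a and Mmp12), and without baseline replicate 2 it was 3 genes (Ccl9, Ccl6 and Zfp706). It was 48, 137 and 66 genes without isotype replicates 1, 4 and 5, 468 without isotype replicate 3 and 102 without baseline replicate 3. Of 50 genes named below that passed, 48 could be tested without baseline replicate 1, where 6 passed, and 48 without baseline replicate 2, where 3 passed. Genes with predicted or clone symbols, 4 of the 136 higher and 19 of the 99 lower, are left out of the rankings of named genes.

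A chemokine gave the largest rise among the named genes. Ccl6, a CC chemokine that recruits myeloid cells in mice, is encoded at chr11:83587882-83593087 (GRCm38, minus strand, ENSMUSG00000018927). It stood at 28.5, 29.3, 25.9, 19.7 and 26.1 FPKM in isotype tumours, against 5.44, 6.79 and 2.64 FPKM in baseline tumours. The lowest isotype tumour was thus well above the highest baseline tumour, and the log2 difference was 2.23 ± 0.23 (adjusted p = 0.00406, limma). Its neighbour Ccl9, a further CC chemokine for myeloid cells, had 9.05, 7.55, 8.36, 5.26 and 8.45 FPKM in isotype tumours, against 1.58, 1.64 and 1.41 FPKM in baseline tumours. The baseline tumours barely differed among themselves, and Ccl9 was higher by 1.76 ± 0.16 (adjusted p = 0.00406, limma). Cxcl1, a neutrophil-attracting chemokine, measured 15.9, 16.2, 15.3, 8.57 and 21.2 FPKM in isotype tumours, against 2.57, 2.75 and 4.55 FPKM in baseline tumours, a difference of 1.92 ± 0.25 (adjusted p = 0.00836, limma). Both Ccl6 and Ccl9 passed in each of the 8 fits that left out 1 library, while Cxcl1 did not pass without baseline replicate 1 or 2.

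Cxcl14, a chemokine made by stromal and epithelial cells, was at 7.87, 5.25, 5.77, 6.14 and 15.3 FPKM in isotype tumours, against 1.86, 1.02 and 0.109 FPKM in baseline tumours (difference 2.19 ± 0.36, adjusted p = 0.0216, limma). Isotype replicate 5 stood far above the other isotype tumours, and baseline replicate 3 had almost none. The eosinophil chemokine Ccl11 was higher by 0.88 ± 0.16 (adjusted p = 0.0295, limma), at 3.13 to 4.51 FPKM in isotype and 1.02 to 2.02 FPKM in baseline tumours. Of 24 chemokines listed, 7 were set aside as short and 6 were too low. Of the 11 tested, 5 were higher and 0 lower, against 1.12% and 0.813% of all genes, with a median difference of 0.88. Without baseline replicate 1 or 2 the count was 2, and without baseline replicate 3 or isotype replicate 1 it was 3. The T-cell chemokines Cxcl9 and Cxcl10, which interferon-gamma induces, did not follow. Cxcl9 differed by -0.59 ± 0.33 and Cxcl10 by -0.27 ± 0.24, and neither passed (adjusted p = 0.411 and 0.627, limma).

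Some inflammatory and myeloid genes passed as higher, and most did not pass. Il1b, the precursor of interleukin-1 beta, had 32.2, 24.6, 32.5, 34.2 and 18.6 FPKM in isotype tumours, against 11.9, 12.0 and 10.002 FPKM in baseline tumours. Every isotype tumour exceeded every baseline tumour, with a difference of 1.23 ± 0.19 (adjusted p = 0.0176, limma). Nos2, which makes nitric oxide in activated macrophages, was higher by 1.30 ± 0.23 (adjusted p = 0.0281, limma), at 6.98 to 17.1 FPKM in isotype and 3.12 to 4.79 FPKM in baseline tumours. Csf3, the granulocyte growth factor G-CSF, was higher by 0.98 ± 0.19, Ptgs2, the inducible prostaglandin synthase, by 0.75 ± 0.12, and Trem1, an amplifying receptor of neutrophils and monocytes, by 0.82 ± 0.14. Of 15 inflammatory cytokine genes tested, 3 were higher and 0 lower, against 1.12% and 0.813% of all genes, with a median of 0.64. Isotype libraries lay above all baseline libraries in 8 of the 15, against 6.14% of all genes. The acute-phase genes Saa3 (1.85 ± 0.47) and Lcn2 (1.23 ± 0.28) were among those 8 but did not pass, and Tnf differed by 0.10 ± 0.31. Of 14 neutrophil markers listed, 5 were set aside and 5 were too low. Of the 4 tested, Il1b and Trem1 were higher, 0 were lower, and the median was 0.55. The list's summed level overlapped, at 325 to 395 FPKM in isotype and 231 to 381 FPKM in baseline tumours, highest in baseline replicate 3. Without baseline replicate 1 or 2, or without isotype replicate 1, the counts of inflammatory and neutrophil genes were 0, and without baseline replicate 3 or isotype replicate 5 both were 1.

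Mmp12 encodes macrophage elastase, the protease that cleaves elastin. Its level was 29.4, 40.1, 30.9, 32.3 and 34.8 FPKM in isotype tumours, against 6.01, 13.95 and 13.1 FPKM in baseline tumours (difference 1.59 ± 0.23, adjusted p = 0.0137, limma). The groups stood apart by more than the spread within either. The macrophage and monocyte list as a whole gave 1 gene higher (Nos2) and 0 lower of 20 tested, with a median of 0.40, or 0.20 without baseline replicate 3. The count was 2 without isotype replicate 3 and 0 without isotype replicate 1 or 2 or baseline replicate 1 or 2. Its summed level was 1699 to 2420 FPKM in isotype and 1028 to 1747 FPKM in baseline tumours, lowest in baseline replicate 3. Cd209f, a C-type lectin, was at 1.10 to 3.18 FPKM in isotype and 0 to 0.161 FPKM in baseline tumours (1.55 ± 0.20, adjusted p = 0.00790, limma). It reached 1 FPKM only in isotype tumours, so it entered the test through the group where it is high. Cbr2, a carbonyl reductase, was higher by 1.71 ± 0.27. The share of these differences that goes with more macrophages was not tested.

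**Figure D1:**
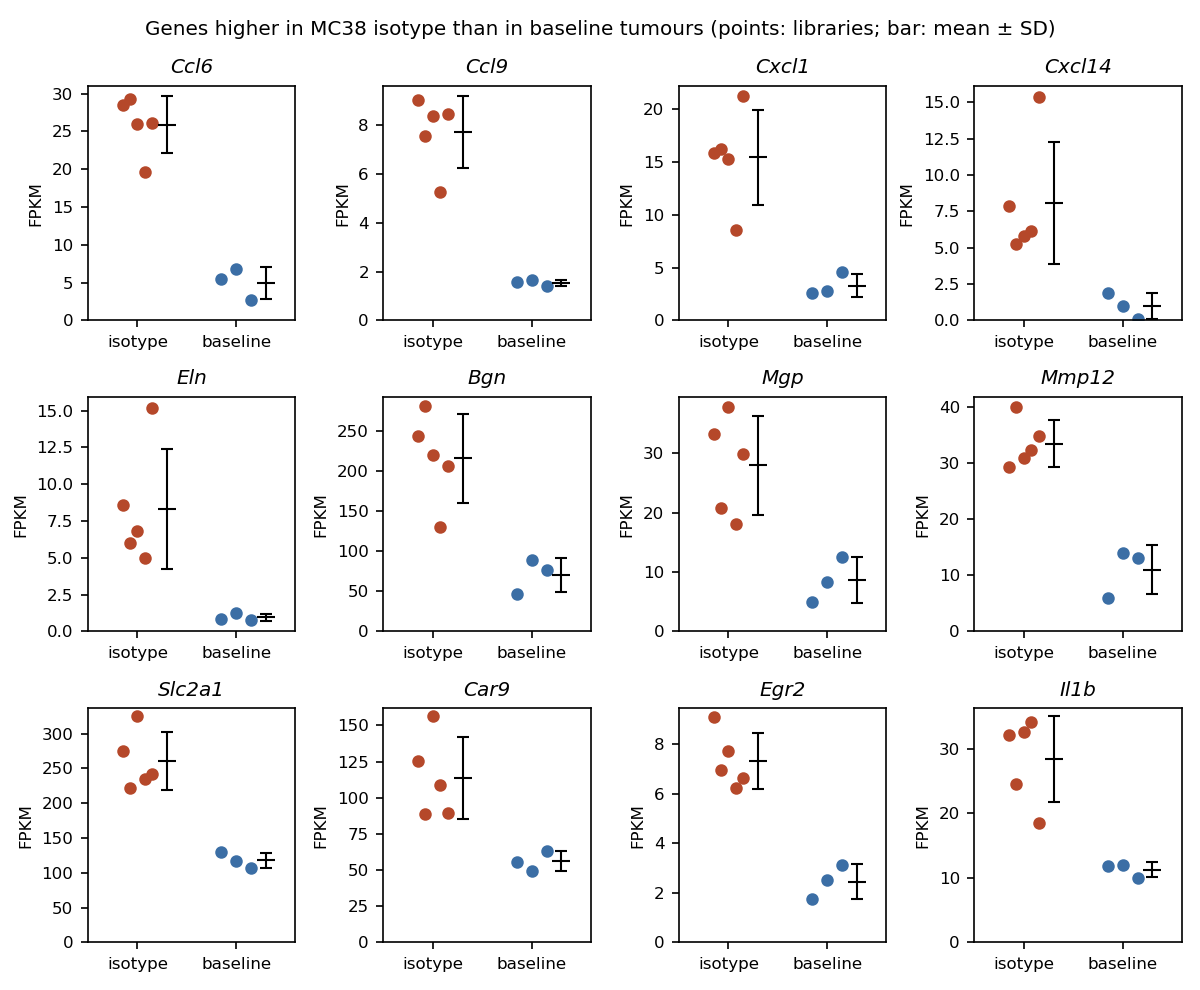
FPKM of 12 genes in each MC38 library, isotype on the left and baseline on the right of each panel, with the mean and SD as a black bar. In each panel the lowest isotype library lies above the highest baseline library, and Cxcl14 and Eln each have 1 isotype library (replicate 5) far above the others.

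Several of the 14 largest rises were in genes of elastic fibres and proteoglycans, a grouping made after the values were seen and given no test. Elastic fibres consist of an elastin core and microfibrils, and small proteoglycans bind collagen around them. Elastin itself, Eln, had 8.57, 5.99, 6.85, 5.01 and 15.2 FPKM in isotype tumours, against 0.874, 1.25 and 0.803 FPKM in baseline tumours, a difference of 2.15 ± 0.28 (adjusted p = 0.00812, limma). Isotype replicate 5 was the highest tumour, and the 3 baseline tumours were all low. Mfap5, a microfibril protein, stood at 8.75, 9.59, 9.05, 6.25 and 11.6 FPKM in isotype tumours, against 3.35, 2.26 and 0.120 FPKM in baseline tumours (1.98 ± 0.38, adjusted p = 0.0330, limma). The proteoglycan biglycan, Bgn, was at 244, 281, 220, 130 and 206 FPKM in isotype tumours, against 46.7, 88.6 and 76.4 FPKM in baseline tumours (1.61 ± 0.26, adjusted p = 0.0212, limma). Mgp, matrix Gla protein, an inhibitor of calcification, was higher by 1.62 ± 0.30, at 18.1 to 37.8 FPKM in isotype and 4.88 to 12.6 FPKM in baseline tumours. Leaving out 1 library ended the call of Mfap5 in 6 of 8 fits, of Bgn in 5, of Mgp in 4 and of Eln in 2.

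The general fibroblast and matrix list gave few calls. Of its 20 members, Pi16, a marker of adventitial fibroblasts, was higher (1.37 ± 0.14, adjusted p = 0.00406, limma), 0 were lower, and the median was 0.24. The count was 2 without isotype replicate 3 and 0 without baseline replicate 2. Col1a1, the main fibrillar collagen, differed by 0.45 ± 0.21, fibronectin (Fn1) by 0.23 ± 0.11 and the collagen cross-linking enzyme Lox by 1.19 ± 0.45, and none of them passed. Of 13 genes of the TGF-beta response, Ccn1, a matrix-associated signalling protein, was higher by 1.22 ± 0.22 (adjusted p = 0.0264, limma), 0 were lower, and the median was 0.20. That count was 2 without isotype replicate 3 and 0 without isotype replicate 1 or any 1 of the baseline libraries. Serpina3n, a protease inhibitor, was higher by 1.63 ± 0.26, and Rarres2, the precursor of chemerin, by 1.61 ± 0.32. Serpina3n belongs to a family of near-identical genes, and 33.6% of the exonic length of Rarres2 overlaps Lrrc61 on the other strand, so both values are uncertain.

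Of 20 hypoxia and glycolysis genes tested, 7 were higher and 0 lower, against 1.12% and 0.813% of all genes, and the rest did not pass. Slc2a1 encodes the glucose transporter GLUT1 (chr4:119108711-119137983, GRCm38, plus strand, ENSMUSG00000028645). It was at 275, 222, 326, 235 and 242 FPKM in isotype tumours, against 129, 117 and 107 FPKM in baseline tumours, a difference of 1.13 ± 0.14 (adjusted p = 0.00714, limma). The lowest isotype tumour was well above the highest baseline tumour. Carbonic anhydrase IX, Car9, which exports acid, measured 126, 88.6, 157, 109 and 89.7 FPKM in isotype tumours, against 55.6, 49.6 and 63.3 FPKM in baseline tumours (0.98 ± 0.18, adjusted p = 0.0314, limma). Ero1l, an oxidase of disulphide bond formation in the endoplasmic reticulum, had 152, 166, 154, 194 and 170 FPKM in isotype tumours, against 94.9, 83.8 and 96.5 FPKM in baseline tumours (0.86 ± 0.10, adjusted p = 0.00714, limma). Egln3, a prolyl hydroxylase that marks hypoxia-inducible factor for degradation, was higher by 0.76 ± 0.09. Ndrg1, a stress-induced gene of cell differentiation, was higher by 0.82 ± 0.12, Bnip3, a mitophagy receptor, by 0.62 ± 0.10, and the vasodilator peptide gene Adm by 0.61 ± 0.11.

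The glycolytic enzymes were high in both groups and did not pass. Gapdh differed by -0.04 ± 0.20, Eno1 by 0.05 ± 0.17, Ldha by 0.24 ± 0.19 and Pgk1 by 0.29 ± 0.16. Vegfa, the main growth factor of blood vessels, differed by 0.49 ± 0.26 (adjusted p = 0.392, limma), and baseline replicate 3 reached 216 FPKM, within the isotype range of 140 to 230 FPKM. Isotype libraries lay above all baseline libraries in 12 of the 20, against 6.14% of all genes, and the median difference was 0.40. Slc2a3, the transporter GLUT3, which was not on the list, showed 5.54, 8.29, 4.18, 3.30 and 4.78 FPKM in isotype tumours, against 0.945, 1.03 and 1.16 FPKM in baseline tumours (1.56 ± 0.22, adjusted p = 0.0112, limma). The count of 7 was 0 without baseline replicate 1 or 2 and 3 without isotype replicate 1, and 5 to 8 in the fits without any of the other libraries.

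Hypoxia-inducible factors bind the letters ACGTG, so the 250 bases before the RefSeq start of 4 of these genes are shown, with ACGTG on either strand in capitals. They are RefSeq's on GRCm38.p6, 5′ to 3′ along the gene's strand, from chr4:119108495-119108744 and chr4:43506776-43507025 on the plus strand and chr7:138909507-138909756 and chr14:45318573-45318822 on the minus strand.
Slc2a1: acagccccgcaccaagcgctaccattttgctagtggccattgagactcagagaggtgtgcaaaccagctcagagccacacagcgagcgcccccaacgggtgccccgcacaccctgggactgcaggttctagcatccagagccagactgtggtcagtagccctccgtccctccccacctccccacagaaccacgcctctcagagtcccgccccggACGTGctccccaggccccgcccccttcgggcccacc
Car9: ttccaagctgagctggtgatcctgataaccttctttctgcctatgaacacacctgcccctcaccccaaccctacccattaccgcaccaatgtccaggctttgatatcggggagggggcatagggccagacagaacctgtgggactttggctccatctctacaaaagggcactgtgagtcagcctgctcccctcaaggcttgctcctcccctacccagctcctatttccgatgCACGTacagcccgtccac
Bnip3: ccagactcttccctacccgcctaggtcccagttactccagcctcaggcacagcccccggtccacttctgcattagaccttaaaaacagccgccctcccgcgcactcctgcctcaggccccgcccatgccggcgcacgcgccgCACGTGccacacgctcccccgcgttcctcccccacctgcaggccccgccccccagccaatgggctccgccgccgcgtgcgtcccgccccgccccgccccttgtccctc
Ero1l: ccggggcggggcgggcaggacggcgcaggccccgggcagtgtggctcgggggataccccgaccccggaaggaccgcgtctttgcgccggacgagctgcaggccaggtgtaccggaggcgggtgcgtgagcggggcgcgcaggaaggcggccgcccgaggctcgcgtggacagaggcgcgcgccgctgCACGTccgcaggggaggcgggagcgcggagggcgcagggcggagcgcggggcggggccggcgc
The match begins at -36 in Slc2a1, -18 in Car9 and -63 in Ero1l, and Bnip3 holds the letters on both strands, overlapping, from -108 and -107. GENCODE begins each of the 4 genes within the bases shown, upstream of the RefSeq start. By GENCODE the matches in Car9 and Ero1l lie inside the gene. Of the 7 genes that were higher, 6 have an entry, and 5 of these held ACGTG between 250 bases before and 50 after the start. Among the other 13 members with an entry, 9 held it too. Over 27025 genes with an entry, 21.8% held it at any listed start.

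Early stress genes respond within minutes to growth factors, calcium and mechanical or metabolic stress. Ier3, an early response gene linked to cell survival, was at 106, 101, 142, 74.6 and 76.6 FPKM in isotype tumours, against 33.9, 30.0 and 39.8 FPKM in baseline tumours (1.47 ± 0.20, adjusted p = 0.00997, limma). The transcription factor Egr2 had 9.11, 6.96, 7.75, 6.25 and 6.66 FPKM in isotype tumours, against 1.73, 2.50 and 3.15 FPKM in baseline tumours (1.28 ± 0.16, adjusted p = 0.00773, limma). Its relative Egr1 was higher by 1.32 ± 0.21, the stress factor Atf3 by 1.01 ± 0.16 and the AP-1 subunit Junb by 1.00 ± 0.16. In all, 5 of 15 were higher and 0 lower, against 1.12% and 0.813% of all genes. Isotype libraries lay above all baseline libraries in 10, against 6.14% of all genes, and the median was 0.68. Fos (1.00 ± 0.41) did not pass and Jun differed by 0.01 ± 0.15. The count was 0 without baseline replicate 1 or 2, and 2 without baseline replicate 3 or isotype replicate 1. In the unfolded protein and amino acid stress list, Atf3 and Herpud1, a factor of protein degradation at the endoplasmic reticulum (0.67 ± 0.12), were higher among 19 tested, 0 were lower, and the median was 0.39. Their number was 6 without isotype replicate 2, 3 without isotype replicate 3, 1 without isotype replicate 4 or 5, and 0 without isotype replicate 1 or any 1 of the baseline libraries. Among 10 heat shock genes, Hspa1a, an inducible HSP70 gene, was higher (1.19 ± 0.24), 0 were lower, and the median was -0.01. The heat shock count was 2 without isotype replicate 2 or 3 and 0 without any 1 of the other libraries. Its near-identical copy Hspa1b differed by 1.04 ± 0.23 (adjusted p = 0.0613, limma), and fragments of the pair may be divided between them.

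**Figure D2:**
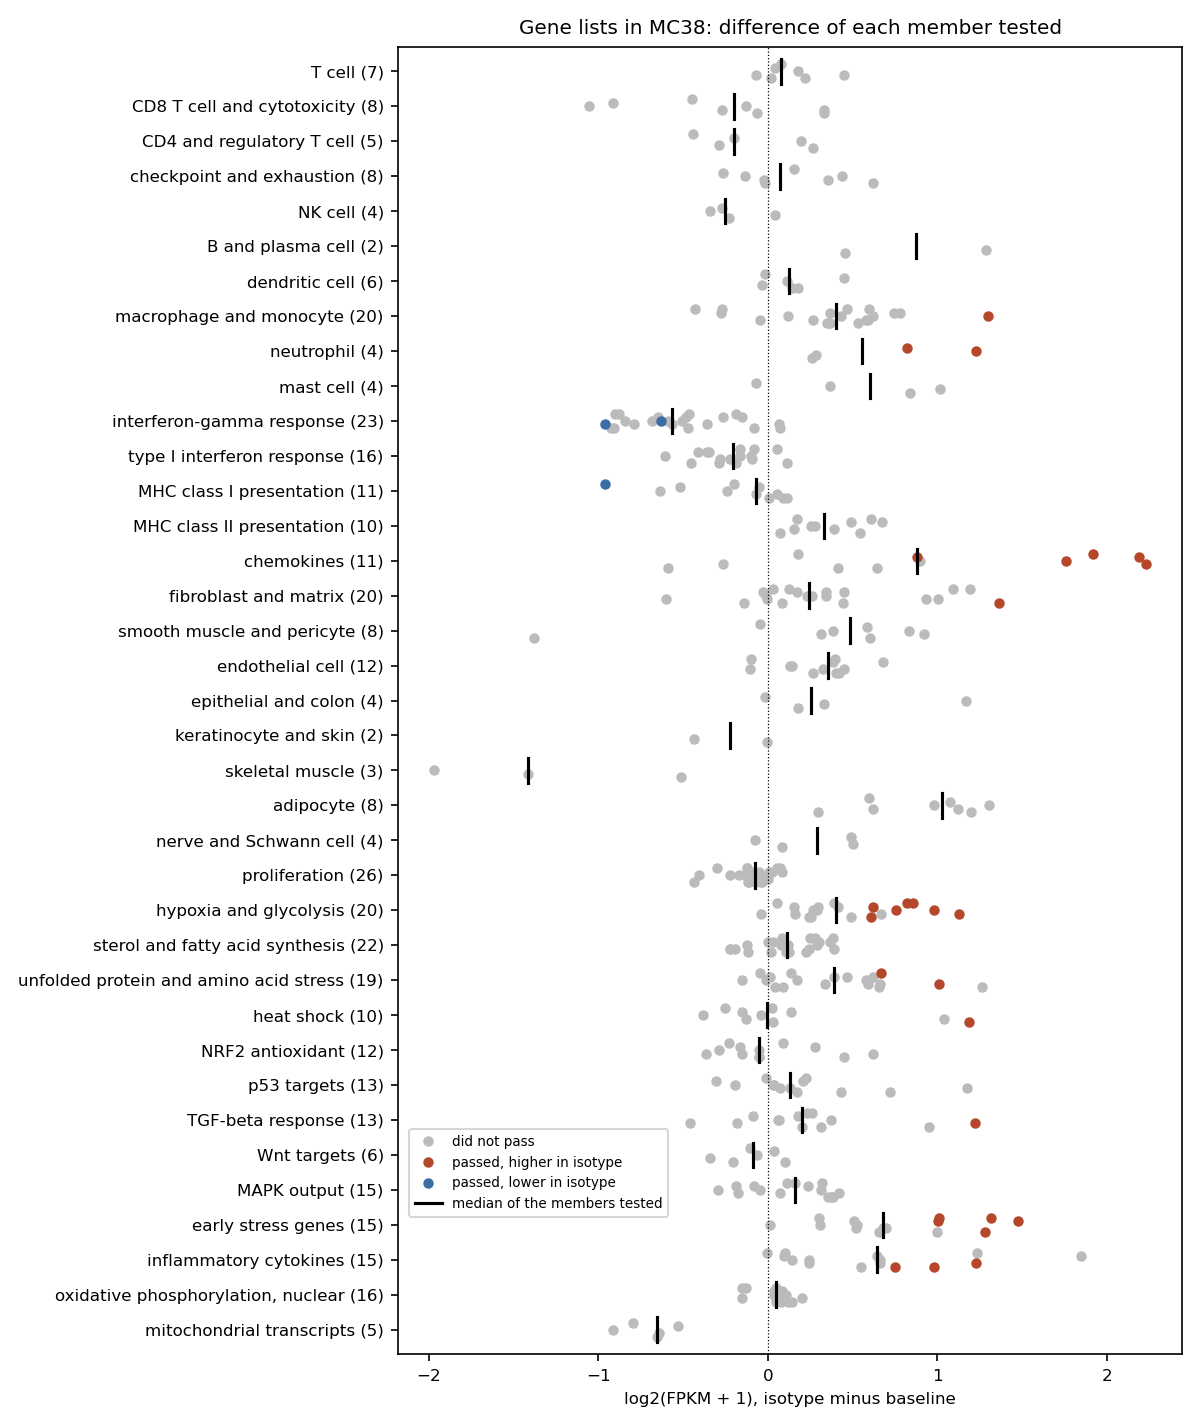
Log2 difference, isotype minus baseline, of each tested member of 37 gene lists in MC38, with the number tested in brackets and the median as a black line. Chemokines, hypoxia, early stress and inflammatory cytokines hold most of the genes that passed as higher, and the interferon-gamma list lies mostly to the left, with 2 genes passing.

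Interferon-gamma response genes lay mostly below 0. Nlrc5, the transactivator of MHC class I genes, was at 24.4, 24.7, 26.1, 33.4 and 16.4 FPKM in isotype tumours, against 53.4, 49.4 and 42.9 FPKM in baseline tumours, a difference of -0.96 ± 0.19 (adjusted p = 0.0351, limma). Isotype replicate 5 was the lowest and isotype replicate 4 the nearest to baseline. Serpina3g, an inhibitor of cathepsins, fell by 0.63 on the log2 scale (SE 0.12), at 77.2 to 105 FPKM in isotype and 142 to 152 FPKM in baseline tumours. It belongs to the same gene family as Serpina3n, so its value is uncertain too. Nlrc5 and Serpina3g were 2 of 23 tested (0 higher), against 0.813% of all genes lower. The list's median was -0.57, with 21 members negative, beside medians of 0.76 in EMT6 and -0.86 in LL2. None of the 23 passed in the difference against the mean of EMT6 and LL2 described below. Gbp2, a guanylate-binding protein, had 83.3, 88.2, 82.8, 181 and 49.5 FPKM in isotype tumours, against 186, 184 and 135 FPKM in baseline tumours (-0.90 ± 0.33, adjusted p = 0.226, limma). Isotype replicate 4 lay within the baseline range, and the groups overlapped in 21 of the 23. The list's summed level was 686 to 1733 FPKM in isotype and 1343 to 1734 FPKM in baseline tumours. The count was 0 without any 1 of the baseline libraries or isotype replicate 1, and 1 without isotype replicate 2 or 5. Of 16 type I interferon genes 0 passed (median -0.21), and of 11 MHC class I genes Nlrc5 passed (median -0.07; 3 genes without isotype replicate 3, and 0 without isotype replicate 1 or any 1 of the baseline libraries), while H2-K1, a class I heavy chain, differed by 0.01 ± 0.20. Of 10 MHC class II genes 0 passed, all 10 were positive and the median was 0.33, but 0.02 without baseline replicate 3. Cd74, the class II invariant chain, ran from 799 to 1857 FPKM in isotype and 447 to 1149 FPKM in baseline tumours.

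T-cell genes did not pass in either direction. Pdcd1, which encodes PD-1, was at 2.25, 1.58, 2.43, 3.61 and 1.27 FPKM in isotype tumours, against 1.51, 1.92 and 0.155 FPKM in baseline tumours (0.62 ± 0.32, adjusted p = 0.377, limma). Cd274, which encodes its ligand PD-L1, had 11.0, 12.1, 8.43, 20.6 and 6.97 FPKM in isotype tumours, against 12.6, 13.6 and 8.24 FPKM in baseline tumours (-0.02 ± 0.29, adjusted p = 0.979, limma). Cd8a, a coreceptor of cytotoxic T cells, had 3.81, 2.29, 2.94, 5.11 and 1.80 FPKM in isotype tumours, against 3.30, 3.67 and 0.642 FPKM in baseline tumours (0.33 ± 0.36, adjusted p = 0.681, limma). In all 3 genes the groups overlapped, and for Pdcd1 and Cd8a baseline replicate 3 was the lowest of the 8 tumours. The granzyme genes of killer lymphocytes differed by -1.06 ± 0.24 for Gzma (adjusted p = 0.0665, limma) and by -0.91 ± 0.35 for Gzmb (adjusted p = 0.251, limma). None of 7 T-cell, 8 cytotoxic, 5 helper or regulatory T-cell, 8 checkpoint, 4 NK, 2 B-cell or 6 dendritic cell genes passed. Their medians were 0.08, -0.20, -0.20, 0.07, -0.25, 0.87 and 0.13. With 1 library left out the counts of these lists were still 0, except that Gzma passed as lower without isotype replicate 3. The T-cell genes summed to 6.599 FPKM in baseline replicate 3 and to 19.1 FPKM in each of the other baseline tumours, and without baseline replicate 3 their median was -0.20.

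Other cell types of the tumour and its surroundings gave no calls with all 8 libraries. Mast cell proteases lay above every baseline tumour in every isotype tumour (Tpsb2 1.02 ± 0.22, adjusted p = 0.0512, and Mcpt4 0.84 ± 0.21, adjusted p = 0.0907, limma) but did not pass, and of 4 mast cell genes tested 0 did (median 0.60). Of 12 endothelial genes 0 passed, 10 were positive and the median was 0.36. In 5 of them isotype libraries lay above all baseline libraries, against 6.14% of all genes. Without isotype replicate 3, Eng, a TGF-beta coreceptor of endothelium, passed as higher. Smooth muscle (8 tested, median 0.48), nerve (4, 0.29), adipocyte (8, 1.03), skin (2, -0.22) and epithelial markers (4, 0.25) gave 0 calls too. Skeletal muscle markers summed to 3.89 to 5.03 FPKM in isotype tumours, against 169, 77.6 and 5.30 FPKM in baseline tumours, so muscle RNA was plain in 2 of the 3 baseline libraries. Of its 15 markers 11 were too low to test, and of the 3 tested 0 passed (median -1.42). Without baseline replicate 3, the fast muscle genes Mylpf and Tnni2 passed as lower (median -2.33), and so did Des, the muscle filament desmin, from the smooth muscle list (median 0.24). Adipocyte markers summed to 20.3 to 110 FPKM in isotype tumours and to 131, 15.96 and 7.23 FPKM in baseline tumours. The part of either tissue in the other differences was not tested. The keratins Krt8, Krt18 and Krt19 were at 7.40, 4.95 and 7.83 FPKM in isotype replicate 5, and at most 0.744, 0.756 and 1.56 FPKM in the other isotype tumours and 0.359, 0.489 and 0.273 FPKM in baseline tumours. Proliferation genes did not separate the groups. Of 26 tested 0 passed and the median was -0.07, with Mki67, a marker of cycling cells, at 16.4 to 42.6 FPKM in isotype and 36.7 to 42.9 FPKM in baseline tumours. Sterol synthesis (22 tested, median 0.11), NRF2 (12, -0.05), p53 (13, 0.13), Wnt (6, -0.09), MAPK (15, 0.16) and nuclear oxidative phosphorylation genes (16, 0.05) also gave 0 calls. With 1 library left out, Rrm2 passed as lower without baseline replicate 3, Prdx1 as lower and Cdkn1a as higher without isotype replicate 3, and Gdf15 as higher without isotype replicate 2.

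**Figure D3:**
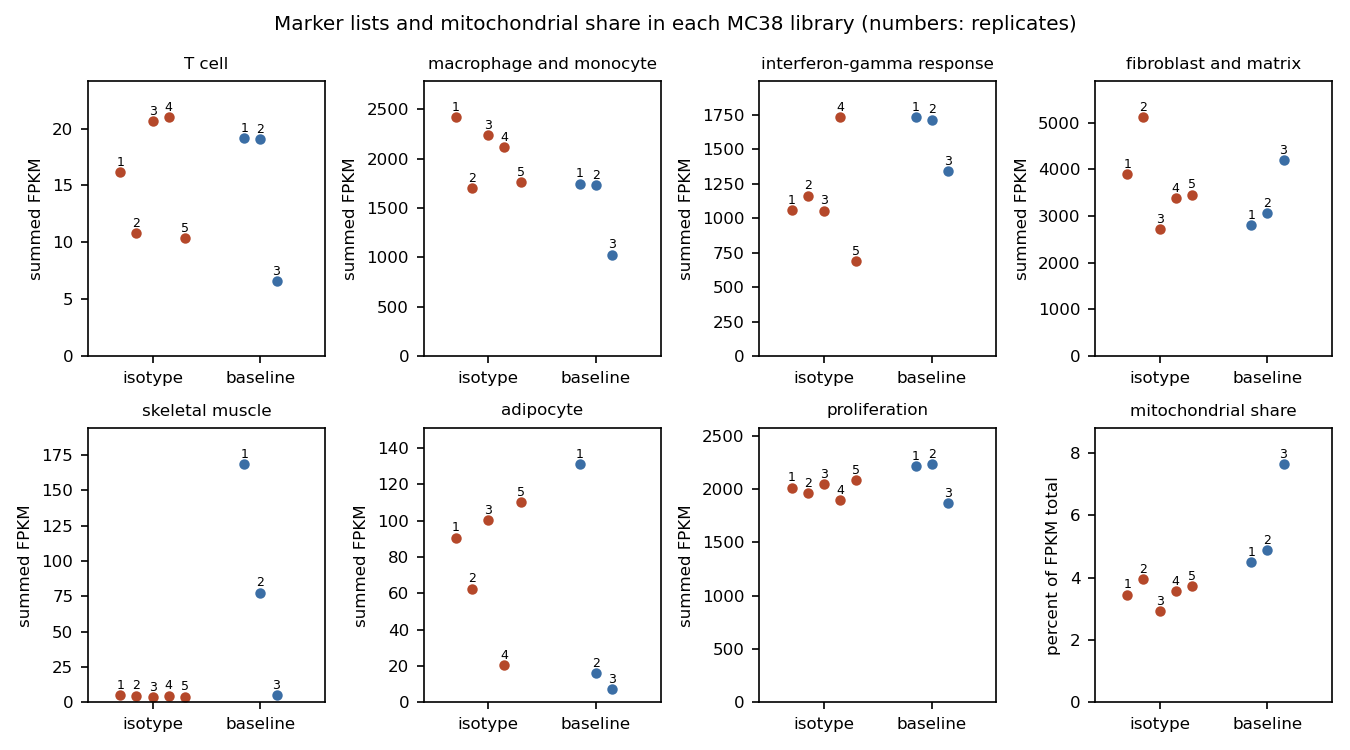
Summed FPKM of 7 marker lists and the mitochondrial share of the FPKM total in each MC38 library, isotype on the left and baseline on the right, with replicate numbers above the points. Muscle markers stand out in baseline replicates 1 and 2, baseline replicate 3 is lowest in T-cell and macrophage markers, and the mitochondrial shares do not overlap.

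Among the genes lower in isotype tumours, 11 with predicted or clone symbols fell by more than the smallest fall named here, led by Gm49383 (-1.73 ± 0.32) and Gm45837 (-1.38 ± 0.11). Zfp706, a small zinc finger protein, had 49.3, 42.5, 55.9, 41.4 and 49.5 FPKM in isotype tumours, against 110, 98.0 and 112 FPKM in baseline tumours (-1.15 ± 0.11, adjusted p = 0.00406, limma). It kept its call in all 8 fits that left out 1 library. Ndufc1, a subunit of respiratory complex I, stood at 25.9, 21.0, 32.7, 18.9 and 21.6 FPKM in isotype tumours, against 71.1, 61.1 and 63.6 FPKM in baseline tumours (-1.43 ± 0.16, adjusted p = 0.00578, limma). Tmsb10, which encodes the actin-binding thymosin beta 10, had 337, 232, 469, 241 and 258 FPKM in isotype tumours, against 708, 667 and 701 FPKM in baseline tumours (-1.22 ± 0.22, adjusted p = 0.0270, limma). Isotype replicate 3 lay nearest to baseline in all of them. The spliceosome protein gene Snrpd3 fell by 0.96 on the log2 scale, the mitochondrial ribosome gene Mrpl51 by 0.92 and Ndufb1-ps, annotated as a non-coding RNA, by 1.09. Leaving out 1 library ended the call of Ndufc1 and Snrpd3 in 2 of 8 fits each (without baseline replicate 1 or 2), of Ndufb1-ps in 3 (without any 1 of the baseline libraries), of Tmsb10 in 6 (all but those without isotype replicates 2 and 3) and of Mrpl51 in 7 (all but that without isotype replicate 3). Among the 99 genes that were lower, 84 had a coding length, with a median of 901.5 bases, and 27.4% were under 500 bases. Among the 136 that were higher the median was 1086 bases and 15.0% were under 500 bases, against 1392 bases and 7.30% over all genes tested with a coding length.

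Zfp706, Ndufc1, Tmsb10 and Snrpd3 were also lower in the other models of the same number blocks. Zfp706 differed by -1.15 ± 0.06 in EMT6 and -1.08 ± 0.08 in LL2, Ndufc1 by -1.67 ± 0.10 and -1.87 ± 0.13, Tmsb10 by -1.53 ± 0.08 and -1.95 ± 0.06, and Snrpd3 by -0.96 ± 0.09 and -0.90 ± 0.10. All passed in both models. Of the 99 genes lower in MC38, 44 were also lower in EMT6, where 7.70% of genes passed and 5.42% were lower, and 38 in LL2, where 25.4% passed and 13.9% were lower. Their median differences were -0.39 in EMT6 and -0.22 in LL2. Of the 136 higher in MC38, 7 were also higher in EMT6 (2.28%) and 6 in LL2 (11.5%), while 38 were lower in LL2. No library is shared between the models. A change common to the number blocks and a change common to growth in all 3 models cannot be told apart.

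The other large falls differed in what EMT6 and LL2 showed. Dffb, the nuclease that cuts DNA in apoptosis, was at 22.4, 20.5, 22.3, 19.1 and 28.0 FPKM in isotype tumours, against 47.7, 43.9 and 50.5 FPKM in baseline tumours (-1.05 ± 0.12, adjusted p = 0.00578, limma). In EMT6 it differed by 0.03 ± 0.11 and in LL2 by 0.53 ± 0.10. Cdkn2a, whose products p16 and ARF restrain the cell cycle, had 1.98, 1.87, 2.02, 1.85 and 1.55 FPKM in isotype tumours, against 4.77, 4.93 and 4.797 FPKM in baseline tumours (-1.03 ± 0.10, adjusted p = 0.00406, limma), a narrow range in both groups, and differed by -0.65 ± 0.09 in EMT6. Shisal2b, a little-studied membrane protein gene, was at 58.1 to 99.9 FPKM in isotype and 178 to 193 FPKM in baseline tumours (-1.35 ± 0.17). Gnat1, the transducin subunit of rod photoreceptors, was at 0.192 to 0.530 FPKM in isotype and 2.19 to 3.78 FPKM in baseline tumours (-1.49 ± 0.15), and differed by -1.53 ± 0.15 in LL2. In MC38 it reached 1 FPKM only in baseline tumours, so it entered the test through the group where it is high. It could not be tested with a baseline library left out. The cation channel gene Trpc6 (-0.92 ± 0.14), the endocytic adaptor gene Sgip1 (-1.01 ± 0.17) and Ccdc73 (-0.87 ± 0.16) completed the 14 largest falls among genes without a predicted or clone symbol. Of the mitochondrial transcripts on the list, 5 were tested and 0 passed. All 5 were lower in every isotype library than in any baseline library, against 7.70% of all genes. The median was -0.65, alongside the lower mitochondrial share given above. The mitochondrial ribosomal RNA gene mt-Rnr2, which is not among those 5, fell by 0.75 on the log2 scale (SE 0.13). Ribosomal RNA was depleted before sequencing, so the value of mt-Rnr2 may depend on the depletion and is uncertain.

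The last question was which MC38 changes exceed those of EMT6 and LL2, tested as the MC38 change minus the mean of the other 2 changes in a fit of 24 libraries. Of 13225 genes, 1056 passed (7.98%), of which 552 had the higher change in MC38 (4.17%) and 504 the lower (3.81%). Among the 136 genes higher in MC38, 77 passed here in the same direction, and among the 99 lower, 37 did. Against the mean of 7 other models of the same baseline block, which include EMT6 and LL2, 43 of the 136 and 12 of the 99 passed. In all of the 7 but EMT6 and LL2 the isotype libraries carry block US-1475, so a shift between blocks need not cancel there. None of the 235 passed against EMT6 and LL2 in the opposite direction, and choosing genes by their MC38 change favours the same direction. The largest positive differences among genes that also passed in MC38 alone were those of matrix genes, chemokines and a few others. Mfap5 stood at 3.02 ± 0.52 (adjusted p = 0.00123, limma), Eln at 2.55 ± 0.42, Cxcl14 at 2.51 ± 0.33, Bgn at 2.49 ± 0.36, Mgp at 2.32 ± 0.44, Rarres2 at 2.29 ± 0.52, Ccl6 at 2.13 ± 0.45 and Cbr2 at 2.05 ± 0.44. Some named genes that did not pass in MC38 alone had differences as large, with Ighm, the heavy chain of IgM, at 2.93 ± 0.47 and Lox at 2.08 ± 0.45. LL2 supplied much of this difference, since Eln changed there by -1.52 ± 0.21, Bgn by -1.75 ± 0.28 and Mfap5 by -2.31 ± 0.40, whereas EMT6 gave 0.73 ± 0.41, -0.01 ± 0.27 and 0.22 ± 0.38. Against EMT6 alone 33 of the 136 and 14 of the 99 passed, against LL2 alone 91 and 38, and 23 and 9 passed against each alone. Cxcl14, Mgp, Slc2a3 and Egr2 are among the 23, and Dffb, Il18rap, Shisal2b and Trpc6 among the 9. Of these, Il18rap did not pass against the 7 models (adjusted p = 0.129, limma). Shisal2b and Trpc6 were too low to test within EMT6 or within LL2, so their differences largely repeat their change in MC38.

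Among genes that also passed in MC38 alone and have no predicted or clone symbol, the most negative differences were those of Dffb (-1.33 ± 0.13), Il18rap, a subunit of the interleukin-18 receptor (-1.28 ± 0.16), Shisal2b (-1.20 ± 0.16), mt-Rnr2 (-0.94 ± 0.23), Trpc6 (-0.84 ± 0.12), Pla2g4b, a phospholipase (-0.81 ± 0.21), Hoxd3os1 (-0.78 ± 0.20) and the chemokine Ccl25 (-0.76 ± 0.14). The value of mt-Rnr2 is uncertain because ribosomal RNA was depleted, and those of Pla2g4b and Hoxd3os1 because they overlap other genes. Pla2g4b and Hoxd3os1 were also too low to test within EMT6, and Shisal2b and Trpc6 within either model. Pla2g4b could not be tested in MC38 with a baseline library left out. Gzma, which did not pass in MC38 alone and was too low to test within LL2, stood at -1.46 ± 0.45 (adjusted p = 0.0472, limma). Below Ccl25 lay 4 genes with predicted symbols that passed in both tests. None of the 20 hypoxia genes passed against the mean of EMT6 and LL2. Slc2a1 stood at 0.75 ± 0.33 (adjusted p = 0.141, limma), Car9 at 0.93 ± 0.46 and Bnip3 at 0.06 ± 0.37. Against EMT6 alone Car9 passed (1.38 ± 0.26, adjusted p = 0.0215, limma), the only one of the 20 to do so, and against LL2 alone 0 of 20 passed. Slc2a1 differed by 0.06 ± 0.19 in EMT6 and 0.69 ± 0.34 in LL2, and the list's median change was 0.01 in EMT6 and 0.52 in LL2, beside 0.40 in MC38. The count of 1056 rested on the partner model and on single libraries. It was 129 against EMT6 alone and 1746 against LL2 alone, 492, 653, 620 and 1886 without MC38 baseline replicates 1 and 2 and isotype replicates 1 and 2, and 611 and 2184 without LL2 baseline replicate 2 and LL2 isotype replicate 5.

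**Figure D4:**
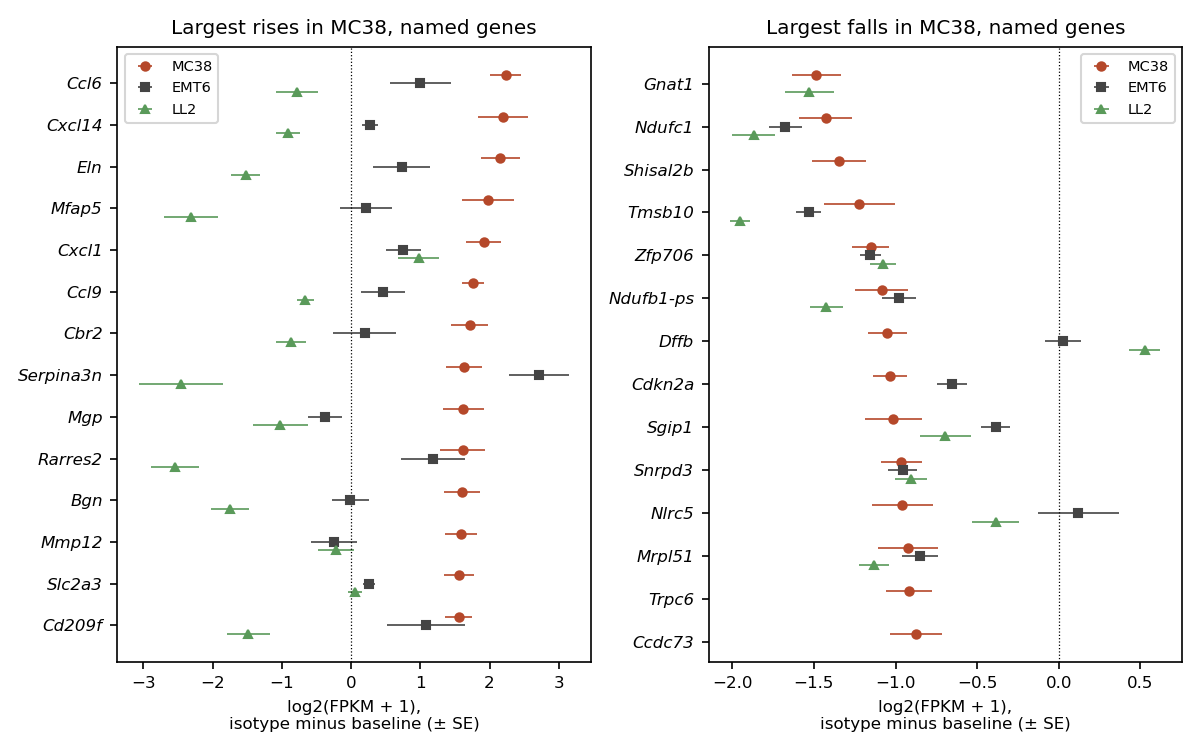
Log2 difference, isotype minus baseline, with its standard error for the 14 largest rises and the 14 largest falls of MC38 among genes without a predicted or clone symbol, in MC38, EMT6 and LL2. Points are missing where a gene was not tested in a model. Apart from Serpina3n, which is larger in EMT6, the rises are larger in MC38 than in either other model, while Ndufc1, Tmsb10, Zfp706, Ndufb1-ps, Snrpd3 and Mrpl51 lie on the left in all 3 models. The genes were chosen by their MC38 change, which favours larger rises in MC38.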

How the data were processed

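Total RNA of snap-frozen tumours was depleted of ribosomal RNA, made into stranded libraries and sequenced in a paired-end run of 50 bases, per the labels' protocols. The authors deposited FPKM values for 54232 gene identifiers in 143 libraries; the sources used here do not give their aligner, quantifier, build or annotation. Names, lengths and coordinates came from GENCODE M21 on GRCm38, which held 54165 of the identifiers. Because the number blocks differ, 26724 genes that were pseudogenes or had an exonic length of 1000 bases or less were set aside. Genes that reached an FPKM of 1 in 3 or more libraries of the fit were tested 2-sided on log2(FPKM + 1) with the trended fit of limma 3.58.1 (R 4.3.3). Scripts were tested on simulated data. The members of the comparison and the 38 gene lists were chosen with earlier results of these data known, and lists are described by counts and medians with no test. Of the 38 lists, the erythroid markers had 0 genes tested.

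Genes were named by rule, namely Pdcd1, Cd274 and Cd8a, the 14 largest rises and 14 largest falls among genes that passed with groups apart (predicted Gm and Rik symbols left out), up to 3 passing members of each list (or up to 2 with the next largest), and the 8 largest differences in each direction against EMT6 and LL2 among genes that passed there and in MC38, with the same symbols left out. Other list members and Krt8, Krt18, Cdx2, Vil1, Gm49383 and Gm45837 were named after their values were seen. Depth was estimated from the smallest step of values of genes with 1 transcript, since no counts were used. Alternatives were the pseudocount, filters, scaling, a GC and length correction, a replicate block, partner models and leaving out each library. The difference against EMT6 and LL2 of 1 further named gene is not reported here.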

Additional observations from a re-analysis of the deposited data

Results flagged for a closer look

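In isotype tumours of MC38, 5 of 107 named genes had 1 library far from the other 4, by the gap to the nearest library over the range, a criterion that chance meets in about 1 in 20 groups. Cxcl14 reached 15.3 FPKM and Krt19 7.83 FPKM in isotype replicate 5, Mcpt4 reached 2.45 FPKM in isotype replicate 3, Eng was lowest at 9.68 FPKM in isotype replicate 3, and mt-Rnr2 was lowest at 43.6 FPKM in isotype replicate 4.

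The change in MC38 differed from the mean change of EMT6 and LL2 in a test of the difference itself for the 36 named genes given here (limma, adjusted p under 0.05). For 18 genes that were higher in MC38, the log2 differences were 3.02 for Mfap5, 2.55 for Eln, 2.51 for Cxcl14, 2.49 for Bgn, 2.32 for Mgp, 2.29 for Rarres2, 2.13 for Ccl6, 2.05 for Cbr2, 1.86 for Ccl9, 1.82 for Mmp12, 1.76 for Cd209f, 1.53 for Egr2, 1.40 for Slc2a3, 1.34 for Egr1, 1.07 for Nos2, 0.82 for Herpud1, 0.72 for Csf3 and 0.62 for Trem1. For 9 genes that were lower in MC38 they were -1.33 for Dffb, -1.28 for Il18rap, -1.20 for Shisal2b, -0.94 for mt-Rnr2, -0.84 for Trpc6, -0.81 for Pla2g4b, -0.78 for Hoxd3os1, -0.76 for Ccl25 and -0.68 for Cdkn2a. For 9 genes that did not pass in MC38 alone they were 2.93 for Ighm, 2.08 for Lox, 1.95 for Krt19, 1.87 for Cd79b, 1.35 for Gdf15, 0.91 for Cdkn1a, 0.62 for Spry4, -0.49 for Znrf3 and -1.46 for Gzma. Within LL2, Cdkn2a, Csf3, Gdf15 and Gzma were too low to test. Cd79b, Hoxd3os1 and Pla2g4b were too low within EMT6, and Shisal2b and Trpc6 within both. Ighm changed by -3.67 in LL2 and by 0.38 in EMT6, and Lox by -1.93 and 0.17. Against EMT6 alone, none of the tested B-cell or fibroblast and matrix list genes passed.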

How the results depend on the processing

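The 235 calls kept their direction in every alternative in which they were tested. Their number was 354 with GC and length trends removed (191 shared), 422 with short genes and pseudogenes kept, and 64 when a difference of at least 1 log2 unit was required as well. Leaving out 1 library gave 3 to 468. The share of calls that were higher was 57.9%, against 44.7% with no filter on low values, 46.8% with the spread shared with muDX400 libraries, 42.9% with short genes and pseudogenes kept and 45.7% without isotype replicate 3. With the replicate block the number was 0 by limma, with 1381 genes at an unadjusted p under 0.05 (1947 without it). Same-numbered libraries deviated with correlations of 0.05, -0.16 and -0.05, so the numbers are not taken to pair them. For the difference against EMT6 and LL2, the 1056 genes became 2059 with the replicate block, 129 against EMT6 alone, 1746 against LL2 alone and 201 against 7 other models of the same baseline block, and 492 to 2184 with 1 library left out. The causes were not tested. For the 50 named genes that passed, 85 of 534 values in other settings and 179 of 394 with a library left out lost their call, and none reversed.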

Other observations

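Several further genes, some of them of tissue macrophages, passed as higher in isotype tumours and were chosen after their values were seen. The macrophage and monocyte list itself gave 1 gene higher of 20. Without baseline replicate 1 or 2 none of the genes given here as higher passed. Clec10a, a lectin of macrophages and dendritic cells, was at 5.08, 3.78, 4.20, 3.81 and 6.48 FPKM in isotype tumours, against 1.08, 1.12 and 0.918 FPKM in baseline tumours (1.46 ± 0.16, adjusted p = 0.00578, limma). F13a1, a coagulation factor subunit made by macrophages, was higher by 1.45 ± 0.28, Lyve1, a hyaluronan receptor of lymphatic vessels and some macrophages, by 1.26 ± 0.27, and Cd14, the lipopolysaccharide coreceptor, by 1.36 ± 0.19. Gas6, a ligand of the TAM receptors that recognise dying cells, was at 7.27 to 14.9 FPKM in isotype and 3.04 to 3.19 FPKM in baseline tumours (1.45 ± 0.19). Tnfrsf9, the costimulatory receptor 4-1BB, had 75.3, 64.5, 84.3, 58.7 and 58.0 FPKM in isotype tumours, against 20.2, 20.8 and 30.9 FPKM in baseline tumours (1.48 ± 0.17), while Cd8a did not pass. Of the genes given here as higher, only Tnfrsf9 passed in the difference against EMT6 alone. Against LL2 alone all but Tnfrsf9 passed.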
